A study of Mus musculus with 8 samples.

Results

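The genes described here are the clustered histone genes of the mouse, taken as the rows whose symbol begins Hist1h, Hist2h, Hist3h or Hist4h in the larger of 2 deposited expression tables. Of the 31574 rows of that table, 70 carried such a symbol. The floor of a row is its lowest possible value, which stands for a normalized count of 1 or less. With at least 2 of the 8 libraries above the row's floor, 65 of the 70 entered the fit of 18051 rows. The 65 comprised 5 linker histone H1 genes, 16 H2A genes, 19 H2B genes, 12 H3 genes and 13 H4 genes. By position, 52 lay in the Hist1 cluster on chromosome 13, 9 in the Hist2 cluster on chromosome 3, 3 in the Hist3 cluster on chromosome 11 and 1, Hist4h4, on chromosome 6. The 5 that did not enter were Hist1h1t, Hist1h2aa, Hist1h2ad, Hist1h2aj and Hist2h2aa1.

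RNA was sequenced from bone marrow c-kit+ cells of an acute myeloid leukaemia in C57BL/6 mice, with 2 libraries in each of 4 groups. Per the labels, Ezh1-present oil cells were Ezh1+/+ Ezh2+/+, Ezh1-present tamoxifen cells Ezh1+/+ Ezh2-/-, Ezh1-null oil cells Ezh1-/- Ezh2+/+ and Ezh1-null tamoxifen cells Ezh1-/- Ezh2-/-. The series' design text gives the Ezh2 alleles of both oil groups as flox/flox. Mice received 5 intraperitoneal doses of tamoxifen (10 mg/kg/day, dissolved in corn oil) or the oil alone, and cells were taken 7 days after treatment. The sample titles carry the word Moz, which the labels do not explain, and no Cre driver is named. Tamoxifen and Ezh2 deletion coincide in every library, so they cannot be told apart, and the 2 Ezh1 genotypes may stem from separate leukaemias. The labels do not say whether the 2 libraries of a group came from different animals, so p-values measure the spread between these libraries, which may be technical. Ages were not given in the sources used here.

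Ezh1 and Ezh2 are the alternative catalytic subunits of Polycomb repressive complex 2, which methylates histone H3 on lysine 27. The clustered histone genes supply the core and linker histones that package newly made DNA, and most are transcribed in S phase under the coactivator Npat. Their mRNAs usually end in a conserved stem-loop bound by Slbp instead of a poly(A) tail, although some members also make polyadenylated transcripts in cells that leave the cycle. Whether poly(A) RNA was selected is not stated in the labels, which name an Illumina TruSeq RNA kit and total RNA. How far a row measures stem-loop or polyadenylated transcripts is therefore unknown. Polyadenylated forms are known for Hist1h1c, Hist1h2bc and Hist2h2be.

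The stem-loop is shown first because it is the feature that sets these mRNAs apart. The letters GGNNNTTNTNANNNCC were searched on the coding strand in the 100 bases after the stop codon of GENCODE M21 transcripts. They were found in 46 members, of 52 whose model ran at least 16 bases past the stop, and in 103 of 21118 genes with such a model (0.488%). There were 8 spellings, and the most common ones differ by a paired change in the stem or by the last base of the loop. Capitals mark the stem and lower case the loop.
Hist1h1c (26 members share this spelling): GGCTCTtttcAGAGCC
Hist1h4n (7 members): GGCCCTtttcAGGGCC
Hist1h3e (6 members): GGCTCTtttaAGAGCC
Hist1h4j (2 members): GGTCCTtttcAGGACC
Among the 65 members in the fit, 22 models ran at least 100 bases beyond the stem-loop, 21 ended nearer to it, 14 were too short after the stop to be searched, 6 had no match in the window and 2 had no coding model. Those without a match were Hist2h2be, Hist2h3b, Hist1h2bq, Hist1h2br, Hist1h2bc and Hist1h1a. The models of Hist2h3b and Hist1h1a ran only 37 and 48 bases past the stop, so they may end before a stem-loop. The transcripts searched were spliced, so a stem-loop in spliced-out sequence would be missed. This may apply to Hist1h2bq, Hist1h2br and Hist1h2bc. The model of Hist1h1c ran 840 bases past its stem-loop and that of Hist3h2ba 169 bases, while that of Hist1h2ap ended 3 bases and that of Hist1h4n 31 bases past it.

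Promoters were taken from RefSeq (GRCm38.p6, 250 bases before to 50 after the start), in which 62 of the 70 members had an entry by gene ID, giving 63 windows. On either strand, TATAAA was present in 55.6% of these windows against 13.6% of all 32851 promoters, CCAAT in 85.7% against 37.4%, and the octamer ATTTGCAT in 22.2% against 1.74%. The families differed in these letters. CCAAT was in all 6 H1, 18 H2A, 17 H2B and 10 H3 windows but in 3 of 12 H4 windows, and the octamer was in 7 H2A and 7 H2B windows and in no window of the other families. A match is a description of letters and does not show a binding site. The first 3 of the promoters below belong to members called in 2 comparisons each, and the last to the H4 gene that was called. Capitals mark CCAAT and TATAAA on either strand.
Hist1h1c, chr13:23738557-23738856, plus strand: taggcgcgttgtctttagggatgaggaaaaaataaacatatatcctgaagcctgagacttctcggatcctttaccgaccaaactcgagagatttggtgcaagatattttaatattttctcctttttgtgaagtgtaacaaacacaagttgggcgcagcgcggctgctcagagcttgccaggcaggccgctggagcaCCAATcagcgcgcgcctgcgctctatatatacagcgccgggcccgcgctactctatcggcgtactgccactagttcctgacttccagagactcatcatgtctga
Hist3h2ba, chr11:58948661-58948960, plus strand: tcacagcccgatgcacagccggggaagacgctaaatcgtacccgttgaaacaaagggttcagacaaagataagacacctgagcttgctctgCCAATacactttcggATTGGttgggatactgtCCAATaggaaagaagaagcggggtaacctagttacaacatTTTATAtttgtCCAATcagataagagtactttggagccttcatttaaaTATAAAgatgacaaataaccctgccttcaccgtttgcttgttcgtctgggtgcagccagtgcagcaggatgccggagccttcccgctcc
Hist1h2ap, chr13:21833426-21833725, minus strand: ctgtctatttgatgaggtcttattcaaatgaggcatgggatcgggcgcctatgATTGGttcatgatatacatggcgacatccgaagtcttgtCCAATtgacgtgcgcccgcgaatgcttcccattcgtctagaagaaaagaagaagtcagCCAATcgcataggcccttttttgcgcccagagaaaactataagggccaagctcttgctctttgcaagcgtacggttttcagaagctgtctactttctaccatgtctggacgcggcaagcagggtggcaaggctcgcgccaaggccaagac
Hist1h4n, chr13:21832148-21832447, minus strand: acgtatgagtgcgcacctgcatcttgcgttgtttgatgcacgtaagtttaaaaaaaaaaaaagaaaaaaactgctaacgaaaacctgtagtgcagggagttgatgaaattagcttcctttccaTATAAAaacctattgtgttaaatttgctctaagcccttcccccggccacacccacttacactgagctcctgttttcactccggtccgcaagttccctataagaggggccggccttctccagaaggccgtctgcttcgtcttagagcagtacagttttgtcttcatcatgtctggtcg
Hist1h2ap and Hist1h4n are neighbours in the Hist1 cluster, yet their windows differ in both motifs.

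The coding sequences of the members are close to one another, which limits what a row can mean. Each member was compared only with members of exactly equal coding length, which 59 had. Of these, the median identity to the nearest was 98.7%, 49 were at least 95% identical to another and 10 were identical. Closer matches among members of other lengths were not searched. The identical pairs were Hist2h3c1 and Hist2h3c2, Hist2h2aa1 and Hist2h2aa2, Hist1h2bq and Hist1h2br, Hist1h2ao and Hist1h2ap, and Hist1h4m and Hist1h4n. How reads that fit several copies were counted is not given in the sources used here, so the rows of such genes are uncertain. Hist2h2aa1 and Hist1h2ad lie wholly inside the rows of Hist2h3c1 and Hist1h3d, and both were listed at the floor in all 8 libraries. Hist1h1e and Hist1h2be overlap by 497 bases.

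Values below are log2 normalized values set against each gene's median across libraries, so they compare libraries within a gene and not levels between genes. For 60 of the 65 members no floor was visible, since no 2 libraries shared the lowest value. A single library at the floor would not be seen in centred values. Between Ezh1-null and Ezh1-present cells, Ezh1 changed by -3.53 under oil and by -3.17 under tamoxifen on the log2 scale (limma adjusted p = 0.00108 and 0.000793). Ezh2, counted over the whole gene, changed with tamoxifen by -0.19 in Ezh1-present cells and by -0.47 in Ezh1-null cells, and neither passed (adjusted p = 0.293 and 0.0554). The deleted exons are not named in the labels, so a whole-gene value does not check that deletion. Kit had no visible floor. The library medians of 6 c-kit+ leukaemia markers, Kit among them, split by Ezh1 genotype. In Ezh1-present cells they were -0.35 and -0.34 under oil and -0.17 and -0.27 under tamoxifen. In Ezh1-null cells they were 0.23 and 0.22 under oil and 0.23 and 0.29 under tamoxifen. Of lists of other blood cell types, erythroid (7 genes in the fit), neutrophil (8) and T and NK cell (9) markers had their lowest library medians in the 2 Ezh1-present oil libraries, at -1.98 and -1.21, -3.79 and -2.97, and -2.54 and -2.20. The library medians of the 5 B cell markers were lowest in Ezh1-present tamoxifen, at -1.09 and -0.95, against -0.57 and -0.53 in Ezh1-present oil. Those of the 5 megakaryocyte markers were -0.62 and -0.24 in Ezh1-present oil and -0.43 and -0.57 in Ezh1-null oil. Fewer cells of a type and less RNA per cell cannot be told apart in bulk libraries.

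As a group the histone genes were lowest in Ezh1-present oil cells. The median over the 65 members was -0.19 and -0.24 in the 2 Ezh1-present oil libraries, 0.09 and 0.20 in Ezh1-present tamoxifen, 0.12 and -0.09 in Ezh1-null oil, and 0 and -0.005 in Ezh1-null tamoxifen. Over all 18051 rows the 8 library medians lay between 0 and 0.005. The Ezh1-present oil libraries held the lowest value of 13 and 17 members, and the Ezh1-present tamoxifen libraries the highest value of 14 and 18 members. Ties at the floor were counted for the first tied library, with the Ezh1-present oil libraries placed first. The lowest counts therefore include such ties, among them Hist2h2ab and Hist1h2ba in Ezh1-present oil replicate 2. The 2 Ezh1-null oil libraries differed in sign. No test is attached to these medians, since members share clusters and sequence and are not replicates.

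**Figure D1:**
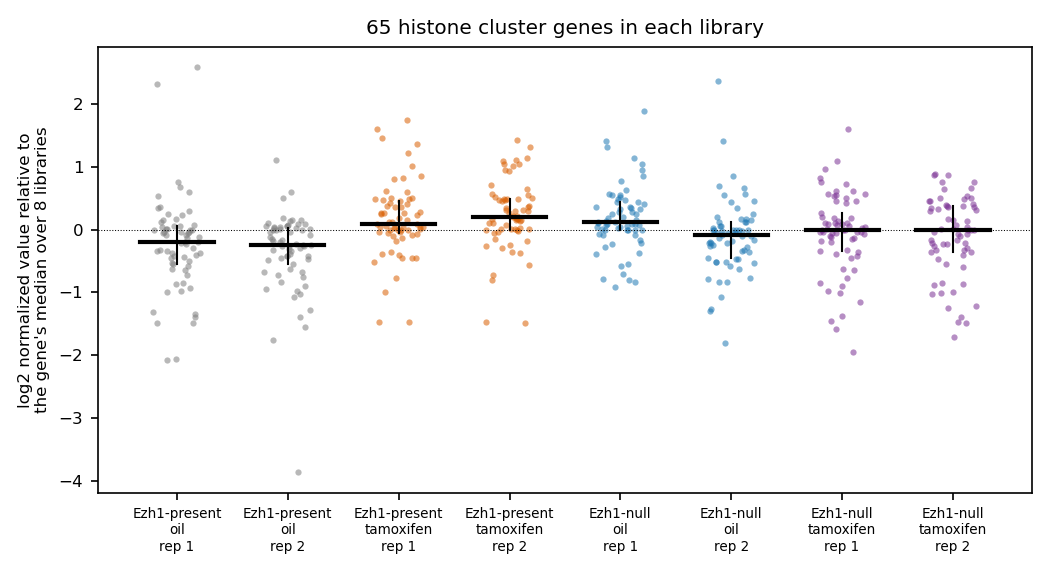
Log2 normalized values of the 65 histone cluster genes, each relative to its own median, in the 8 libraries (points, genes; thick bar, median; thin line, quartiles). The medians of the Ezh1-present oil libraries, -0.19 and -0.24, are the lowest of the 8.

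The members also varied more between libraries of a group than most rows did. The SD between the 2 libraries of a group, pooled over the 4 groups, had a median of 0.474 over the members. It was 0.186 over all rows and 0.154 over the 15517 rows without a visible floor. H4 genes varied most (median 0.890) and H2B genes least (0.369). Members whose models run well past the stem-loop had a median of 0.398, those ending near it 0.522, those too short to search 0.656, the 6 without a match 0.309 and the 2 without a coding model 0.635. The tightest were Hist1h2ap (0.147), Hist3h2a (0.150), Hist1h1b (0.156), Hist1h1c (0.163) and Hist2h2be (0.170), of which Hist1h2ap and Hist1h1c were called below. The widest were Hist1h2ah (1.14), Hist1h4f (1.14), Hist2h4 (1.12) and Hist2h2ab (1.12). Read depth of these genes is unknown, since the centred values keep no level.

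**Figure D2:**
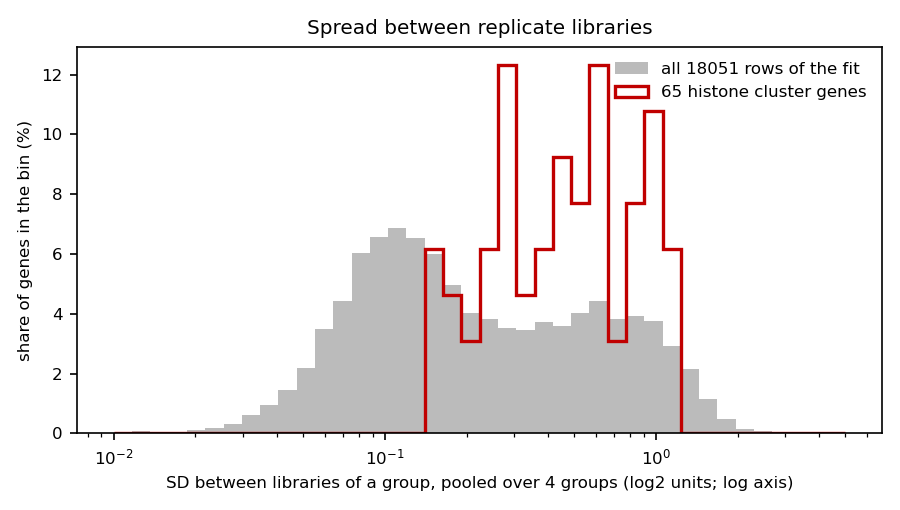
Distribution of the SD between libraries of a group, pooled over the 4 groups, in log2 units on a log axis, as the share of genes per bin for the 65 members (red line) and all 18051 rows (grey). The members' median is 0.474 and that of all rows 0.186.

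The first comparison asked what tamoxifen, with Ezh2 deletion, did in cells that keep Ezh1. Hist3h2ba, an H2B gene of the Hist3 cluster (chr11:58948911-58949530), rose. Its values were -0.38 and -0.83 in Ezh1-present oil and 0.80 and 1.10 in Ezh1-present tamoxifen, a log2 change of 1.56 ± 0.19 (SE, 2 libraries a group) or 2.94-fold (limma adjusted p = 0.0454). Both tamoxifen libraries lay above both oil libraries. It was the 1 member of 65 called, or 1.54%, where 0.903% of all rows were called and 0.637% were called higher. The call did not hold in any of the 8 fits that left out 1 library, with adjusted p from 0.057 to 0.153, nor with robust moderation or in a fit of these 2 groups alone.

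Most other members had higher means after tamoxifen without passing the test. The change was above 0 for 53 of 65 members (81.5%), against 51.9% of all rows, and its median was 0.49, against 0.01. The groups did not overlap for 41 members, where the share over all rows was 53.8%. Of these, 37 were higher and 4 lower, against 28.5% and 25.3% of all rows. At an unadjusted p under 0.05 there were 14 members (21.5%), close to the 20.6% of all rows. All 5 H1 genes had changes above 0 (median 0.72), as did 18 of 19 H2B genes (0.76), 11 of 16 H2A genes (0.32), 9 of 12 H3 genes (0.48) and 10 of 13 H4 genes (0.46), and these medians stayed above 0 after quantile normalization.

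Among the linker histones, Hist1h1c (encoding H1.2) came closest to the threshold, at -1.34 and -1.39 in oil and -0.45 and -0.01 in tamoxifen, a change of 1.14 ± 0.16 (limma adjusted p = 0.0555). Hist1h1b (encoding H1.5) stood at -0.37 and 0.04 in oil and 0.28 and 0.37 in tamoxifen. All 3 members of the Hist3 cluster had changes above 0. The pseudogene row Hist3h2bb-ps was at 0.77 and -0.48 in oil and 1.75 and 1.43 in tamoxifen (change 1.45, adjusted p = 0.148), and Hist3h2a, an H2A gene, had a change of 0.52 (0.155). In both, the tamoxifen libraries were the higher ones with no overlap.

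The largest rise in mean belonged to the H2B gene Hist1h2bn, at -1.32 and -3.87 in oil and -0.03 and 0.71 in tamoxifen. The oil libraries differed from each other by more than 2 log2 units, and the change of 2.93 ± 0.86 did not pass (adjusted p = 0.158). Whether the value of -3.87 lay at the floor cannot be seen. The H3 gene Hist1h3i was likewise spread in oil, at -2.08 and -0.04 against 0.04 and 0.95. On the other side, the H4 gene Hist4h4 was at 0.53 and 0.06 in oil and -0.40 and -0.18 in tamoxifen, a change of -0.59 that did not pass, and Hist1h4d and Hist1h2an had smaller changes in that direction. Hist2h3b is treated with the genes at the floor.

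Other blood cell markers moved in the same comparison. The median log2 change was 2.79 over the 7 erythroid markers, 2.34 over the 8 neutrophil markers and 4.32 over the 9 T and NK cell markers, with 7, 8 and 9 of them above 0. Of these, 2 T and NK cell markers were called. The 5 megakaryocyte markers were all above 0 too (median 2.16). The 2 Ezh1-present tamoxifen libraries differed, with medians of -0.39 and 2.07 for erythroid, -1.97 and -0.35 for neutrophil and 0.89 and 2.26 for T and NK cell markers. All 7 erythroid and 8 neutrophil markers, and 6 of the 9 T and NK cell markers, had no visible floor. Their part in the histone changes was not tested. The 30 S phase genes had a median change of 0.05, and limma called none.

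**Figure D3:**
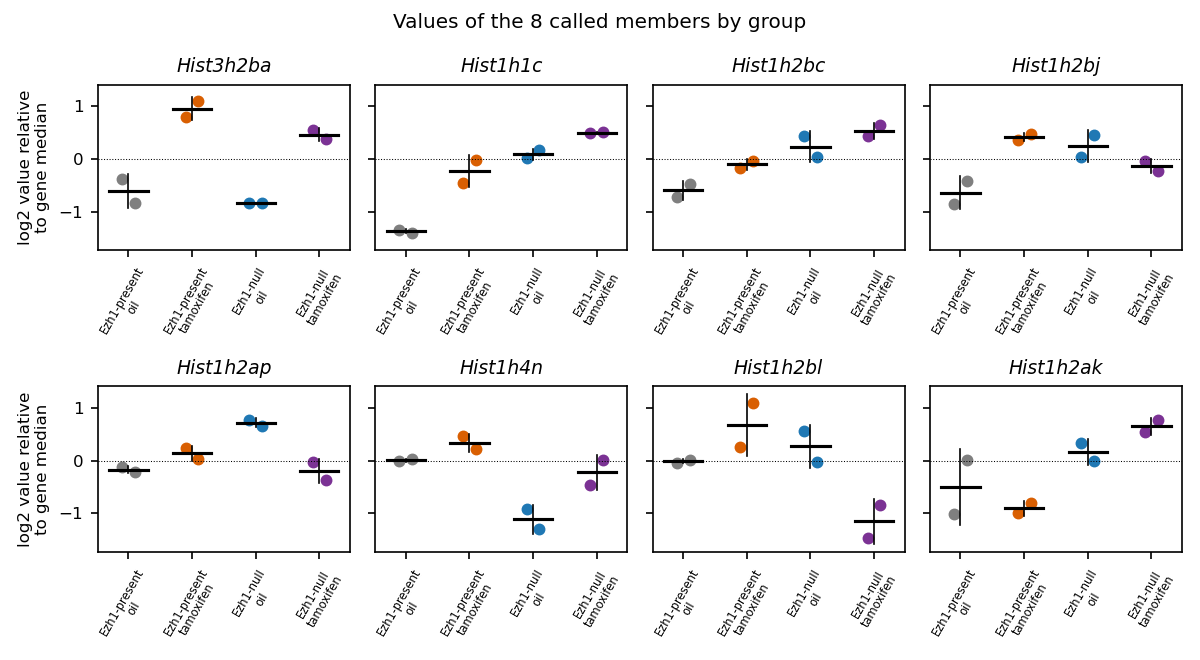
Log2 values relative to the gene's median for the 8 members called in any comparison, by group (points, libraries; thick bar, mean; thin line, SD of 2 libraries). Hist3h2ba is higher in both tamoxifen groups, and Hist1h1c is lowest in Ezh1-present oil, at -1.34 and -1.39.

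The same contrast in cells without Ezh1 again raised Hist3h2ba and lowered an H2A gene. Hist3h2ba was at -0.83 and -0.84 in Ezh1-null oil and 0.55 and 0.38 in Ezh1-null tamoxifen, a change of 1.30 ± 0.19 or 2.46-fold (limma adjusted p = 0.0372). Hist1h2ap (chr13:21833062-21833575) was at 0.77 and 0.66 in oil and -0.03 and -0.36 in tamoxifen, a log2 change of -0.91 ± 0.15 (adjusted p = 0.045). Neither gene's groups overlapped. These 2 calls are 3.08% of the members, near the 3.4% of all rows (3.1% higher and 0.299% lower). The Hist3h2ba call held in 2 of the 8 fits without 1 library, those without either Ezh1-present oil library, and the Hist1h2ap call in none, with adjusted p from 0.0766 to 0.152. A fit of the 2 Ezh1-null groups alone called neither, and robust moderation ended the Hist1h2ap call.

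Hist1h2ao, whose coding sequence is identical to that of Hist1h2ap, had a change of -0.13 in this comparison, at 0.85 and -0.53 in oil and 0.10 and -0.04 in tamoxifen. The 2 rows therefore differ although reads within the coding sequence cannot separate them. Hist2h2be, an H2B gene, was at 0.57 and 0.34 in oil and -0.63 and -0.23 in tamoxifen. Its change of -0.89 ± 0.17 missed the threshold (adjusted p = 0.0619).

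As a whole the members did not lean to either side here. Changes were above 0 for 31 and below 0 for 33 of 65 members, where 48.3% of all rows were above 0, with a median of -0.004 against 0 over all rows. At an unadjusted p under 0.05 there were 10 members (15.4%), against 17.9%. The median ran from -0.14 to 0.16 when 1 library was left out and was -0.26 after quantile normalization, so its sign is not fixed by these data. The groups did not overlap for 20 members, or 30.8% against 49.2% of all rows. There were 10 in each direction, against 24.5% of all rows higher and 24.8% lower. By family, 11 of 19 H2B genes and 5 of 13 H4 genes had changes above 0. Of the S phase genes 1 of 30 was above 0, with a median of -0.26 and 1 called lower. T and NK cell markers were above 0 for 7 of 9 (median 1.51, 1 called), megakaryocyte markers for 4 of 5 (1.11, none called) and B cell markers for 1 of 5 (-1.28, none called). Their part in the histone values was not tested.

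The largest differences among genes without overlap included the H3 gene Hist1h3e, at 0.40 and 0.16 in oil and -1.15 and -1.39 in tamoxifen (change -1.55, adjusted p = 0.150). The H2B gene Hist1h2bl was at 0.55 and -0.02 against -1.46 and -0.85 (change -1.42, 0.132). Hist1h3b and Hist1h2ai, of the same cluster, also had lower tamoxifen means, with changes of -1.11 and -0.93. In the other direction stood the H4 gene Hist1h4n, at -0.92 and -1.30 in oil and -0.45 and 0.01 in tamoxifen (change 0.89, adjusted p = 0.111), the H2B gene Hist1h2bf and the H3 gene Hist1h3h. None of these passed the test.

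In the comparison of the Ezh1 genotypes under oil, 4 histone genes were higher and 1 was lower in Ezh1-null cells. Hist1h1c (chr13:23738807-23740367) had the smallest p. Its values were -1.34 and -1.39 in Ezh1-present and 0.01 and 0.16 in Ezh1-null oil cells, a rise of 1.45 ± 0.16 or 2.74-fold (limma adjusted p = 0.00549). The 2 libraries of each group nearly coincided. This call held in all 8 fits without 1 library and in the other 6 alternatives that could be run for it, with adjusted p from 0.00392 to 0.0369.

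The H2A gene Hist1h2ap rose by 0.89 ± 0.15, from -0.13 and -0.22 to 0.77 and 0.66 (adjusted p = 0.0141). Hist1h2ao, identical to it in coding sequence, had a change of 0.30 that did not pass (0.715), with Ezh1-null oil values of 0.85 and -0.53. The H2B gene Hist1h2bc (chr13:23684199-23692480) rose by 0.83 ± 0.19, from -0.72 and -0.47 to 0.44 and 0.03 (0.0311). Another H2B gene, Hist1h2bj (chr13:22043230-22043610), rose by 0.88 ± 0.22, from -0.86 and -0.41 to 0.04 and 0.46 (0.0390). Hist1h1c and Hist1h2bc are 2 of the 3 genes listed with polyadenylated forms, where 12.5% of all rows were called higher. This list of 3 was chosen with earlier results of these data known, so the count tests nothing. The third, Hist2h2be, had a change of 0.54 that did not pass (0.0713). In the Ezh1 comparison under tamoxifen its change was -0.46, which did not pass either (0.132). In Hist1h2ap, Hist1h2bc and Hist1h2bj the Ezh1-null libraries lay above the Ezh1-present ones without overlap.

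The gene that fell was the H4 gene Hist1h4n (chr13:21831847-21832158), from -0.01 and 0.03 to -0.92 and -1.30. The log2 change was -1.12 ± 0.21 (adjusted p = 0.0203). Its twin in coding sequence, Hist1h4m, had a change of -0.47 that did not pass (0.114). Leaving out 1 library ended the Hist1h2ap call for each of the 4 oil libraries (adjusted p up to 0.067), the Hist1h4n call without either Ezh1-present oil library or Ezh1-null oil replicate 2 (up to 0.0881), the Hist1h2bc call in all fits but that without Ezh1-null oil replicate 2 (up to 0.133) and the Hist1h2bj call in every fit (0.0517 to 0.145). After quantile normalization only Hist1h1c and Hist1h2ap were called, and a fit of the 4 oil libraries alone called these and Hist1h2bq, 3 members.

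These 5 calls are 7.69% of the members, a lower share than the 24.9% of all rows (12.5% higher and 12.4% lower). At an unadjusted p under 0.05 the shares were 20% (13 members) and 39.8%. Changes were nevertheless above 0 for 44 of 65 members (67.7%), against 45.7% of all rows, with medians of 0.33 and -0.04. Without Ezh1-null oil replicate 1 the members' median was 0.15, and without replicate 2 it was 0.51. The groups did not overlap for 29 members, or 44.6% against 65.8% of all rows. Of these, 23 were higher and 6 lower, against 31% and 34.7% of all rows. By family, changes were above 0 for 16 of 19 H2B genes (median 0.36), 12 of 16 H2A genes (0.47), 3 of 5 H1 genes (0.22), 7 of 12 H3 genes (0.39) and 6 of 13 H4 genes (-0.07).

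Large differences in mean that did not pass were those of Hist1h2bn, whose Ezh1-null oil values were 0.03 and 0.12 (change 2.67, adjusted p = 0.0773), and of the H4 genes Hist1h4f and Hist2h4. Hist1h4f was at -0.20 and -1.77 in Ezh1-present and 1.32 and 0.20 in Ezh1-null oil, and Hist2h4 at -2.06 and -0.25 against 0.25 and 0.70. Both had replicates that differed by more than 1 log2 unit in at least 1 group. Hist1h4a, also an H4 gene, was on the low side, at 0.13 and 1.10 against -0.40 and -0.51, and Hist1h2an at 0.25 and 0.08 against -0.08 and -1.07.

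The markers of other blood cells moved here too. Of neutrophil markers 8 of 8 were above 0, with a median change of 4.62 and 6 of them called. Of erythroid markers 7 of 7 were above 0, with a median of 2.40 and 1 called. In the 2 Ezh1-null oil libraries the medians were 0.80 and 1.49 for neutrophil and 0.01 and 1.62 for erythroid markers. None of these markers had a visible floor, and their part in the histone differences was not tested. T and NK cell markers (4 of 9 called) and B cell markers (3 of 5 called) had medians of 2.16 and 3.28. Of the S phase genes 14 of 30 were above 0, with a median of -0.01.

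Under tamoxifen most members leaned the other way in the Ezh1 comparison, although 2 were called higher and 1 lower in Ezh1-null cells. Hist1h1c was again higher, at -0.45 and -0.01 in Ezh1-present and 0.50 and 0.50 in Ezh1-null tamoxifen cells, a difference of 0.73 ± 0.16 (limma adjusted p = 0.0476). The H2A gene Hist1h2ak (chr13:21753435-21753827) was at -1.0 and -0.80 against 0.54 and 0.76, a rise of 1.55 ± 0.35 (0.0494). The H2B gene Hist1h2bl (chr13:21715763-21716143) was at 0.26 and 1.09 against -1.46 and -0.85, a log2 change of -1.83 ± 0.37 (0.0405). None of the 3 overlapped between groups.

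The 3 calls are 4.62% of the members, against 12.2% of all rows (6.77% higher and 5.44% lower). Each was fragile: the Hist1h2bl call held in none of the 8 fits without 1 library (adjusted p from 0.0627 to 0.158), that of Hist1h2ak only without either Ezh1-present oil library and that of Hist1h1c only without Ezh1-present tamoxifen replicate 2. Quantile normalization ended the Hist1h1c call and added Hist1h3e. With robust moderation, or when rows with 1 library above the floor were added, Hist1h2bl alone was called, and a fit of these 2 groups alone called no member.

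Changes were below 0 for 46 of 65 members, and 29.2% were above 0 against 49.3% of all rows. Their median was -0.36, against -0.002. At an unadjusted p under 0.05 there were 14 members (21.5%), against 32.3%. The groups did not overlap for 29 members, or 44.6% against 62.5% of all rows. Of these, 6 were higher and 23 lower, against 30.7% and 31.8% of all rows. The lean was seen in 10 of 13 H4 genes (median -0.54), 9 of 12 H3 genes (-0.41), 11 of 16 H2A genes (-0.36), 12 of 19 H2B genes (-0.12) and 4 of 5 H1 genes (-0.32). Hist1h1c was the exception among the H1 genes.

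Close to the threshold stood Hist3h2bb-ps, at 1.75 and 1.43 in Ezh1-present and -0.20 and -0.16 in Ezh1-null tamoxifen (change -1.77, adjusted p = 0.0522), and Hist1h3e, at 0.37 and 0.17 against -1.15 and -1.39 (-1.54, 0.0786). Hist1h4b, an H4 gene, was at 1.23 and 0.34 against -0.04 and -1.25. On the high side the H2A gene Hist2h2aa2 was at -0.76 and 0.00 against 0.76 and 0.45, without overlap, with an adjusted p of 0.148.

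Of 30 S phase genes 6 were called lower in this comparison, where 5.44% of all rows were, and 2 had changes above 0, with a median of -0.33. The called genes with the smallest p were the DNA polymerase alpha subunit Pola1 (-0.65, adjusted p = 0.0247), the helicase subunit Mcm6 (-0.50, 0.0262) and Mcm3 (-0.49, 0.0293). B cell markers were above 0 for 4 of 5 (median 2.37, 2 called) and neutrophil markers for 8 of 8 (2.13, none called). T and NK cell (1 of 9 above 0, median -0.86), erythroid (1 of 7, -0.83) and megakaryocyte markers (1 of 5, -1.11, 1 called lower) stood on the other side. Their part in the histone differences was not tested.

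**Figure D4:**
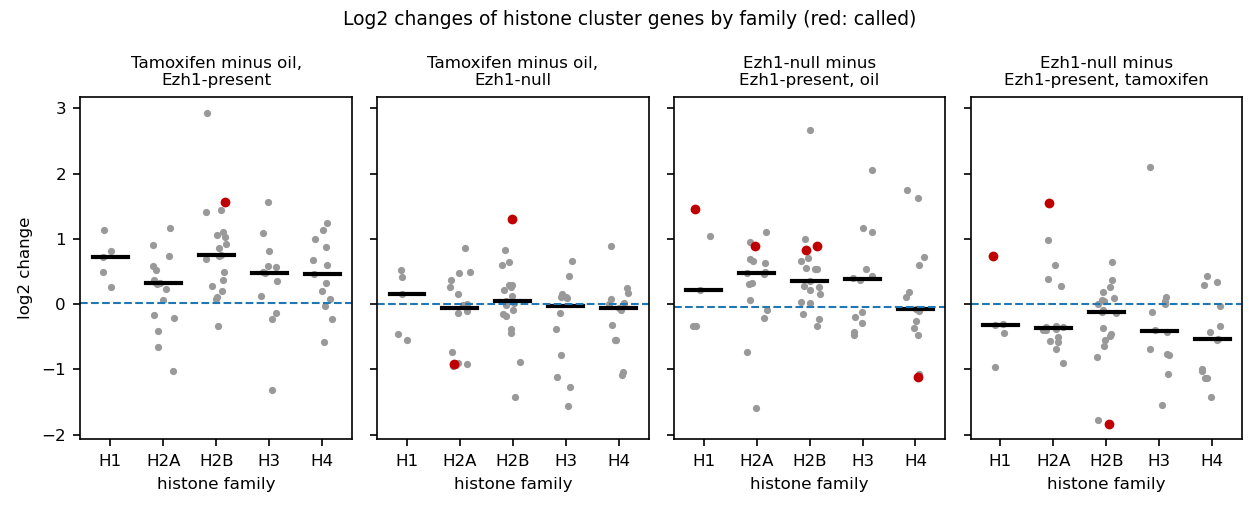
Log2 changes of the 65 members by histone family in the 4 comparisons of groups (points, genes; red, limma adjusted p under 0.05; black bar, family median; dashed blue line, median of all rows). The family medians lie above the dashed line after tamoxifen in Ezh1-present cells and below it for Ezh1-null against Ezh1-present tamoxifen cells.

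Whether the tamoxifen change differed between the Ezh1 genotypes was tested as an interaction. No member was called by limma, and 0.476% of all rows were. At an unadjusted p under 0.05 there were 7 members (10.8%), against 14.9% of all rows. The interaction was below 0 for 50 of 65 members and above 0 for 15, where 49.7% of all rows were above 0, with a median of -0.49 against -0.003 over all rows. It was below 0 for 18 of 19 H2B genes. Other lists had interactions below 0 too, with none of their genes called by limma: 2 of 30 S phase genes were above 0 (median -0.31), 0 of 7 erythroid (-3.23), 0 of 9 T and NK cell (-2.47), 2 of 8 neutrophil (-2.47) and 0 of 5 megakaryocyte markers (-1.21). Their part in the histone pattern was not tested. Without Ezh1-null oil replicate 1 the median was -0.27, and without replicate 2 it was -0.71. This pattern and the comparisons above rest on the same 8 libraries.

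The members with the smallest interaction p were Hist1h2ap (-1.22, adjusted p = 0.105), Hist1h2bj (-1.44, 0.150), Hist1h3e (-2.65, 0.170), Hist2h2be (-0.99, 0.174) and Hist1h2bl (-2.11, 0.191). In each, the tamoxifen mean was higher than the oil mean in Ezh1-present cells and lower in Ezh1-null cells. For Hist1h2bj the 4 group values were -0.86 and -0.41, 0.37 and 0.48, 0.04 and 0.46, and -0.04 and -0.23, in the order Ezh1-present oil and tamoxifen, then Ezh1-null oil and tamoxifen. For Hist2h2be in the same order they were -0.01 and -0.15, 0.05 and 0.01, 0.57 and 0.34, and -0.63 and -0.23. Leaving out Ezh1-present oil replicate 2 brought 1 member, Hist1h3e, past the threshold.

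Many H2A and H2B genes lie side by side, and neighbours within 500 bases of each other were compared. There were 13 such pairs, with gaps of 167 to 334 bases, and both genes were in the fit in 11 of them. After tamoxifen in Ezh1-present cells both changes were above 0 in 8 pairs and both below 0 in none. In Ezh1-null cells, where the members did not lean to either side, both were above 0 in 3 pairs and both below 0 in 3. For Ezh1-null against Ezh1-present oil both were above 0 in 9 pairs and both below in 1. Under tamoxifen both were below 0 in 5 and both above in 2. Where most members lean to the same side, many pairs agree for that reason alone, so these counts do not show that neighbours move together. Partners could also differ widely: in Ezh1-present cells Hist1h2ak had a tamoxifen change of -0.40 and its neighbour Hist1h2bn one of 2.93. Hist1h2ac and Hist1h2bc kept close, at 0.48 and 0.83 for Ezh1-null against Ezh1-present oil and 0.59 and 0.64 under tamoxifen.

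For the 5 members with a visible floor, levels can be given in normalized counts, with 1 standing for the floor. Hist2h3b, an H3 gene, had no signal in either Ezh1-present tamoxifen library and stood at 3.56 and 1.75 in Ezh1-present oil, 7.44 and 14.3 in Ezh1-null oil and 8.50 and 2.18 in Ezh1-null tamoxifen. With the floor set at 3 reads per library, its geometric mean was at least 3.96-fold higher in Ezh1-null oil than in Ezh1-present tamoxifen cells. For Ezh1-null tamoxifen no fold is given, since replicate 2, at 2.18, lay under its own 3-read level of 3.27. No fold against Ezh1-present oil could be given, as the geometric mean of that group lay under 3 reads too. Hist1h2al, Hist2h2ab and the germ line gene Hist1h2ba were at the floor in at least 1 whole group and too low elsewhere for any fold, and Hist1h2ah was low in all groups. The testis genes Hist1h1t and Hist1h2aa were listed at the floor in all 8 libraries.

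Genes that make and handle histone mRNA and protein were examined alongside. Slbp, which binds the stem-loop, and Npat were called in no comparison. The lowest p of both was for Ezh1-null against Ezh1-present tamoxifen, where Slbp changed by -0.46 (limma adjusted p = 0.0597) and Npat by -0.33 (0.119). Of 18 histone mRNA machinery genes, 2 were called lower under oil and 1 under tamoxifen, near the 12.4% and 5.44% of all rows. The cleavage factor gene Cstf2 fell in both Ezh1 comparisons, by 0.39 under oil (0.0344) and by 0.52 under tamoxifen (0.0297), and the cap-binding gene Ncbp1 fell by 0.41 under oil (0.0471). None of the 18 was called after tamoxifen.

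A list of 11 histone genes taken as replication-independent was examined, and that label was not checked gene by gene. The linker histone gene H1f0 rose by 1.62 ± 0.16 with tamoxifen in Ezh1-null cells (limma adjusted p = 0.0123). Its change of 0.98 in Ezh1-present cells missed the threshold (0.0664). H1fx, another linker histone gene, was higher in Ezh1-null cells by 1.70 under oil (0.00925) and by 1.12 under tamoxifen (0.0435). Under oil H2afx was higher by 0.86 (0.0196), and H2afy2, which encodes a macroH2A, was lower by 1.75 (0.00934). These 3 calls of 11 under oil are near the 24.9% of all rows.

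Of 20 histone chaperone genes compared between Ezh1-null and Ezh1-present cells, 5 fell and 2 rose under oil, and 6 fell and none rose under tamoxifen, with medians of -0.17 and -0.30. Over all rows 12.4% fell and 12.5% rose under oil, and 5.44% and 6.77% under tamoxifen. Asf1a, a chaperone of H3 and H4, fell by 0.67 under oil and by 0.73 under tamoxifen (limma adjusted p = 0.0108 and 0.0193). Nasp, which guards the soluble pool of H3 and H4, fell by 0.43 and 0.71 (0.0268 and 0.0172). Nap1l1, Supt16h and Rbbp7 also fell in both, Hat1 fell under tamoxifen by 0.70 (0.0257), and Ubn1 and Hjurp rose under oil, by 0.36 and 0.53. No chaperone was called after tamoxifen in either genotype.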

How the data were processed

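Gene-level RNA-seq values of 8 libraries were used from a table deposited by the authors, with genome build mm10 per the submitters' processing notes. Per the file headers, rows had been filtered on raw data to percentiles 20 to 100. The deposited values per library are log2 of a normalized count, floored at 1 and centred by row median (largest absolute row median 9.55e-07). The authors deposited each log2 change also as a ratio, an absolute and a signed fold change, and their log2 changes equalled the differences of group means within 5.4e-07. A smaller deposited table holds the 4576 rows that changed 2-fold, 19 of them histone members. Aligner, counter and scaling: not given in the sources used here. Total counts are not in these tables, so depth per gene is unknown.

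Here limma 3.58.1 (R 4.3.3) was fitted to the 18051 rows that had 2 or more libraries above their floor, with 1 coefficient per group over all 8 libraries, no block and no trend. P-values were adjusted over all rows by Benjamini-Hochberg and called under 0.05. The fit had 4 residual and 1.24 prior degrees of freedom, and was tested on simulated data. With 2 libraries against 2, an exact two-sided permutation test of a single gene cannot go below 0.333. The normalized value of 1 read, used for floors of 3 reads per library, was estimated from rows with a visible floor, where 67.8% to 74.3% of values were whole within 0.01, and covers counting error only. The histone members and gene lists were chosen with earlier results of these data known. Members named were those called, the 4 with the largest change in each direction whose groups did not overlap, and those with an interaction p under 0.01. Hist1h1b, Hist3h2a, Hist1h2ao, Hist1h4m and Hist1h2ac, and genes named for spread, overlap or the floor, were chosen after their values were seen. Alternatives changed normalization, filter, variance model, groups fitted, replicate block and libraries left out.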

Additional observations from a re-analysis of the deposited data

How the results depend on the processing

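With 2 libraries a group and values without a level, single calls rest on few degrees of freedom. Of the 154 refits of the 11 single calls, 64 kept the call, 90 lost it and none reversed. Quantile normalization gave medians of -0.26 (tamoxifen, Ezh1-null), 0.44 (Ezh1, oil) and -0.62 (interaction) and 2 calls for Ezh1 under oil. Adding rows with 1 library above the floor left 1 call for Ezh1 under tamoxifen. Keeping only rows without a visible floor gave an interaction median of -0.63. Robust moderation gave 0, 1 and 1 calls (tamoxifen with and without Ezh1, and Ezh1 under tamoxifen). Fits of only the groups compared gave 0, 0, 3 and 0 calls in the 4 comparisons of groups. A trend of the variance on level could be fitted only for rows with a visible floor, 5 members, and gave 0 calls in these 4, with medians of -0.65, -0.73 and -0.21 in the first 3 and 0.057 for the interaction, over these fewer genes. Where no cause is given by fewer genes or libraries, the cause was not tested. Libraries with the same replicate number had correlations of deviations from -0.062 to 0.079 over all rows and from -0.073 to 0.338 over the members, so the numbers were not taken to pair the libraries. A replicate block gave 0, 1, 5, 0 and 0 calls: both Hist3h2ba calls, that of Hist1h2bc under oil and all 3 under tamoxifen were lost, and Hist1h4f was added under oil. Without 1 library each, calls ran from 0 to 1, 0 to 2, 2 to 4, 0 to 3 and 0 to 1 in the 5 comparisons. Medians then ran from 0.42 to 0.54, -0.14 to 0.16, 0.15 to 0.51, -0.38 to -0.26 and -0.71 to -0.27. A group left with 1 library was assumed to vary like the others. A pseudocount could not be varied on centred log2 values.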
